A study of Mus musculus with 10 samples.

Results

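The comparison described here set day 6 (D6) of an in vitro differentiation of mouse embryonic stem cells into neuromesodermal progenitors against day 3 (D3), with 2 ATAC-seq libraries on each day of the 10 libraries in the series. Its units were the 246799 genomic regions obtained by merging the peak lists of all 10 libraries. Of these, 173175 had enough reads to be tested and 73624 were removed by a filter on low counts. ATAC-seq inserts sequencing adapters where DNA is accessible, so the read count of a region is a measure of its openness. All libraries are labelled wild type (WT) and came from the ES-Bruce4 line of strain C57BL/6. The line had been grown with LIF on mouse embryo fibroblast feeders and was depleted of feeders before plating. D6 cells had received bFgf at 10 ng/ml from the start, the GSK3 inhibitor CHIR99021 at 5 µM from day 2, and a 1:3 split on day 3. D3 cells had the same factors, with CHIR99021 present for a shorter time. The labels give the B27 supplement as used with or without vitamin A, the precursor of retinoic acid, and do not say which library had which. Neither group received Gdf11. Each library was made from 50000 cells, and separate cultures are not stated for the 2 libraries of a day, so p-values measure the spread between these libraries only.

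Neuromesodermal progenitors are the cells of the tail end of the embryo that give rise to spinal cord and to the paraxial mesoderm of the somites. Cells leaving naive pluripotency pass through a primed, Nodal-responsive epiblast state, and take on caudal fates under Fgf and Wnt signals. Later steps towards spinal cord involve retinoic acid, Hedgehog and Notch signals and the Hox genes, whose order along the chromosome follows the order of their use along the body. In a mixed culture, a change in the share of cells that hold a region open and a change in openness within each cell cannot be told apart.

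No genome sequence was read for the regions, but promoter sequences from RefSeq (GRCm38.p6, the same assembly as mm10) could be placed on them by coordinates. The 4 windows below are the 250 bases before a start of 4 genes whose region at that start was called. The starts used for Wnt5b and Lrp8 lie inside the gene span, and each of these genes has 3 promoter windows. The windows are shown because they hold, or lack, the short motifs discussed with the promoter results. They lie at chr8:43307010-43307259 (Zfp42, minus strand), chr6:119449387-119449636 (Wnt5b, minus strand), chr4:107830703-107830952 (Lrp8, plus strand) and chr3:127632886-127633135 (Neurog2, plus strand), and are written 5′ to 3′ on the gene's strand. Capitals mark every match, on either strand, to the octamer ATGCAAAT, the Sox core CATTGTT, the Hox and Cdx core CATAAA, the RFX core GTTGCCAT, the GC box GGGCGG, the proneural E-box CATCTG or the Lef and Tcf core ATCAAAG.
Zfp42: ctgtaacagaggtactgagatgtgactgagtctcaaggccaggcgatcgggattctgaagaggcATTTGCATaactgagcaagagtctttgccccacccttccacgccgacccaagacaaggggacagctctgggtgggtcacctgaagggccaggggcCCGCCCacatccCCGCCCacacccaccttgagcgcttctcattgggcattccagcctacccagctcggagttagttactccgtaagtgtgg
Wnt5b: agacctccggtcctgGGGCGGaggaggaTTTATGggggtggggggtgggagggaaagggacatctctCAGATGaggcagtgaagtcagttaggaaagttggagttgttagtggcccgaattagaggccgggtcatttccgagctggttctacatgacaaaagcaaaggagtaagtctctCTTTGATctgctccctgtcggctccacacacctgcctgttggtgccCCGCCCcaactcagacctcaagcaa
Lrp8: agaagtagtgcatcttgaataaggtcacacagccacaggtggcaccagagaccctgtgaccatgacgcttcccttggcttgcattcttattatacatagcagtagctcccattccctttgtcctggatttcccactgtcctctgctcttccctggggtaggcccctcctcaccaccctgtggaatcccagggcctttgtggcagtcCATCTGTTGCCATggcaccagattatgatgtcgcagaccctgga
Neurog2: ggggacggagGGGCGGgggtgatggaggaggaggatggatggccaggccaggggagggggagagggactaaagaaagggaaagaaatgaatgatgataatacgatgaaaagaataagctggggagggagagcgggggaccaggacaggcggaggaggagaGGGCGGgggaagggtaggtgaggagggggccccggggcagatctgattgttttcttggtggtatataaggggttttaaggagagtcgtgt
The Zfp42 window holds the octamer, in its reverse form ATTTGCAT, and 2 GC boxes. In the Lrp8 window, the E-box and the RFX core share a base. The Neurog2 window holds no listed motif other than 2 GC boxes.

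More regions were higher than lower on D6. Of the 173175 regions tested, 15887 (9.17%) were higher and 10491 (6.06%) were lower on D6 at an adjusted p under 0.05, or 15.2% in either direction (edgeR's quasi-likelihood test, Benjamini-Hochberg adjustment over all tested regions). In the 4 fits that each left out 1 of the D6 or D3 libraries, 8518 to 12150 regions (4.92 to 7.02%) were called higher and 5087 to 6665 (2.94 to 3.85%) lower. The lowest counts came without the deeper D6 library, replicate 1. From here on, the 2 numbers in brackets after a count or share are its lowest and highest value in those 4 fits. The change was at least 2-fold in 14502 (8143 to 11327) of the higher and 8359 (4221 to 5617) of the lower regions. The D6 libraries held 12335735 and 7403576 reads in regions, and the D3 libraries 11246030 and 7150334. Called regions had a median width of 340 bp (higher) and 341 bp (lower), against 233 bp over all tested regions.

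The D2 and D7 libraries showed how the called regions stood on the outer days. They entered the D6 to D3 test through the merged regions, the filter on low counts and the common estimate of spread, and with the 4 D6 and D3 libraries alone 138581 regions were tested. Levels are given as TMM-scaled counts at a common library size (CPM), with replicate 1 before replicate 2. The median region called higher on D6 had 0.648 and 0.81 CPM on D2, 1.23 and 1.04 CPM on D3, 4.78 and 4.38 CPM on D6, and 4.93 and 5.17 CPM on D7 without Gdf11. The median region called lower on D6 had 5.94 and 5.53 CPM on D2, 6.75 and 6.71 CPM on D3, 2.47 and 2.4 CPM on D6, and 2.32 and 2.28 CPM on D7. The D6 and D3 values chose these regions, so the step between those days is a description and is not read against the steps on either side. The mean level on D7 was above that on D2 in 97.3% of the regions higher on D6, in 15.4% of the regions lower on D6, and in 53.0% of all tested regions. The median D7 minus D2 difference was 1.98 on the log2 scale for higher regions, -1.04 for lower regions and 0.08 for all.

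**Figure D1:**
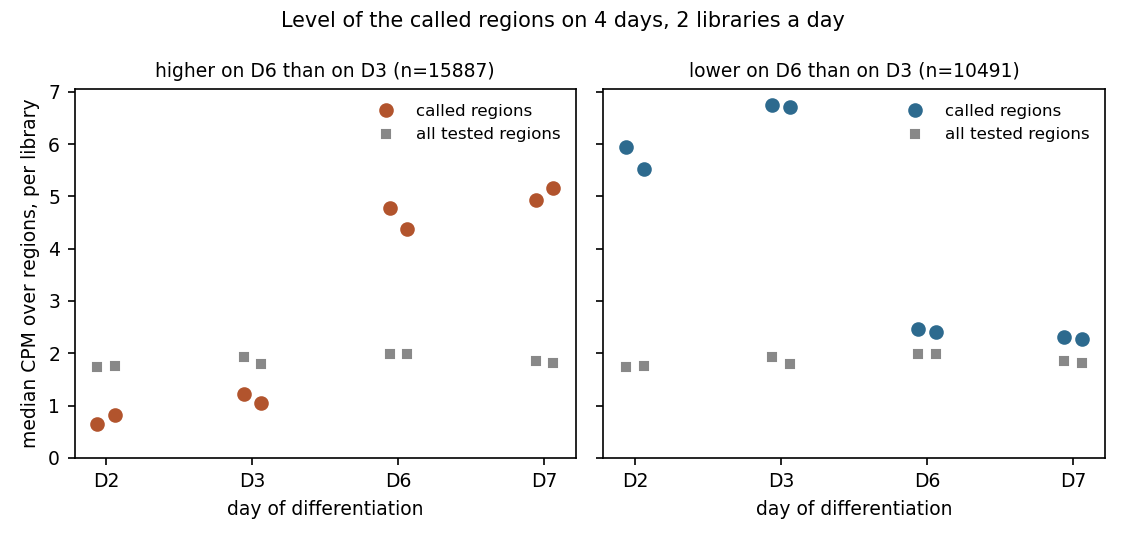
Median level, in TMM-scaled CPM, of the regions called higher on D6, of those called lower and of all tested regions, on D2, D3, D6 and D7 without Gdf11; each point is 1 library. The higher regions lie between 0.648 and 1.23 CPM through D3 and between 4.38 and 5.17 CPM from D6 on, and the lower regions move the other way.

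Regions that were higher on D6 lay more often away from gene ends than the tested regions did. Within 1 kb of a gene end, 3.3% (1.52 to 2.68%) of 25811 regions were higher and 5.04% (2.08 to 3.87%) lower. Inside genes, 10.4% (5.61 to 8.04%) of 69461 were higher and 5.39% (2.67 to 3.4%) lower. Outside genes and up to 50 kb away, 7.49% (3.9 to 5.62%) of 41778 were higher and 6.76% (3.34 to 4.45%) lower. At 50 to 200 kb from the nearest gene, 12.8% (7.06 to 10.3%) of 20892 were higher and 6.84% (3.09 to 4.68%) lower. Beyond 200 kb, 13.2% (7.43 to 10.6%) of 15043 were higher and 7.83% (3.73 to 5.33%) lower. Over 50 kb from genes, 13% (7.22 to 10.4%) were higher and 7.25% (3.36 to 4.95%) lower. The share of lower regions thus varied less with position than the share of higher ones.

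Distance to the nearest transcription start gave the same picture in finer steps. Of 12405 regions that covered a start, 3.93% (1.67 to 3.76%) were higher and 6.15% (2.69 to 5.21%) lower on D6. The share of higher regions was 4.37% up to 1 kb from a start, 7.72% at 1 to 5 kb, 8.09% at 5 to 20 kb, 10.3% at 20 to 50 kb, 11.7% at 50 to 100 kb, 13.1% (7.08 to 10.4%) at 100 to 200 kb and 10.8% (5.83 to 8.44%) beyond. The share of lower regions stayed between 4.24% and 7.66% over all of these classes. Regions at starts were far more open on both days, with a median of 17.6 CPM on D6 and 18.0 CPM on D3, against 1.63 CPM on D6 and 1.47 CPM on D3 at 100 to 200 kb.

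**Figure D2:**
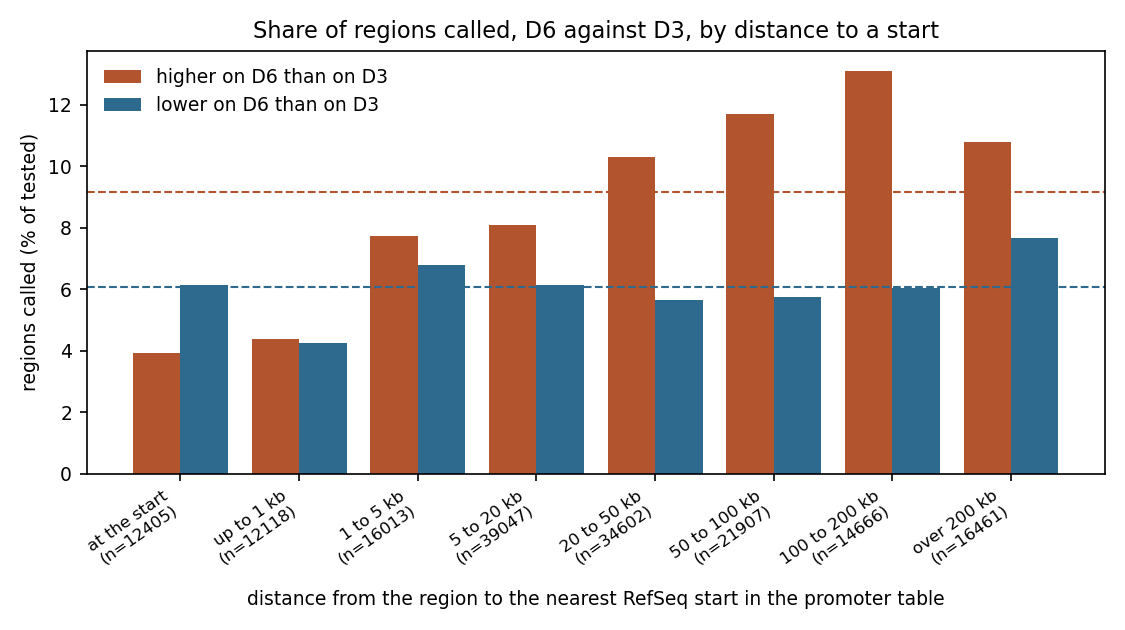
Percent of tested regions called higher (first bar) and lower (second bar) on D6 by distance to the nearest transcription start; the dashed lines mark 9.17% and 6.06%, the shares over all tested regions. The share of higher regions is 3.93% at starts and 13.1% at 100 to 200 kb, while the share of lower regions stays between 4.24% and 7.66%.

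The share called also varied with the level of a region, so the classes were set side by side at like levels. Tested regions were divided into 10 equal groups by their mean level over the libraries. In the group with the highest level, 3.58% (1.45 to 3.92%) of 9797 regions near gene ends were higher and 5.44% (2.43 to 5.26%) lower. Over 50 kb from genes, 38.5% (31.9 to 36.2%) of 1438 regions of that group were higher and 20.9% (14.7 to 18.2%) lower. In the group with the lowest level, 0.941% (0 to 0.824%) of 850 regions near gene ends were higher, and 2.31% (0.475 to 1.14%) of 4841 regions over 50 kb from genes. The share called was larger far from genes in each of the 10 groups and in both directions.

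**Figure D3:**
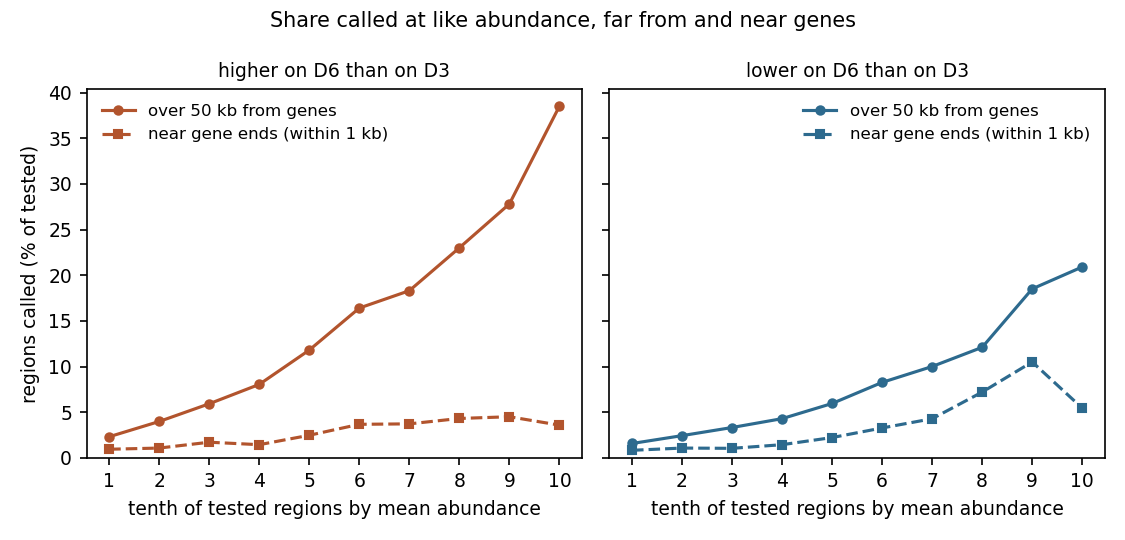
Percent of tested regions called higher or lower on D6, within 1 kb of a gene end and over 50 kb from genes, in 10 equal groups by mean level. In the group with the highest level 38.5% of the regions far from genes are higher on D6, against 3.58% of those near gene ends.

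The deposited peak lists, which the authors made per library, give a second view of the same libraries. Of the merged regions, 9074 held a peak in both D6 lists and in neither D3 list, and 11462 held one in both D3 lists and in neither D6 list. Of the first set, 9060 were tested and 5993 (4044 to 4606) were called higher on D6. Of the second, 11411 were tested and 3724 (1503 to 2133) were called lower. A further 43675 regions held a peak in all 4 lists, and among them 3431 (2008 to 2723) were higher and 4030 (1945 to 2674) lower on D6, so a part of the called changes lay in regions with a peak on both days. These lists differ in length, with 105396 and 80504 peaks on D6 and 111096 and 89051 peaks on D3.

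The regions with the largest increases had at most 1 D3 read. A region inside Cwc27, a gene for a spliceosome-associated protein, at chr13:104751032-104751471 had 3.96 and 2.54 CPM on D6 and 0 in both D3 libraries. Its 66 D6 reads make it at least 20.7-fold higher, with a floor of 3 counts over the D3 group. On the same basis, a region at chr2:56336029-56336329, which is 737884 bp from Kcnj3, was at least 14.1-fold higher on D6, with 1.81 and 3.25 CPM against 0. A region 298118 bp from Nova1, a gene for a neuronal splicing factor, at chr12:47117598-47117822, was at least 13.5-fold higher, one 301250 bp from Etaa1 at least 11.6-fold, and one inside Ell2 at least 9.43-fold. A region inside Astn2 at chr4:65896410-65896760 had 124 D6 reads and 1 D3 read. Its levels were 6.43 and 6.5 CPM on D6 and 0 and 0.149 CPM on D3, a ratio of 117 (20.6 to 4650, exact 95% interval for counting error only). Each of these regions was called in all 4 fits that left out a library, and they lay 61558 to 449342 bp from the nearest transcription start.

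The largest decreases were of a similar kind. A region 45753 bp from Iqsec3 at chr6:121519491-121519777 had 0.33 and 0 CPM on D6, against 5.7 and 5.82 CPM on D3, a log2 change of -4.73 ± 0.66 (SE, adjusted p = 1.83e-07). A region inside Spag17 at chr3:100030189-100030472 had 0.33 and 0.282 CPM on D6, against 8.33 and 5.97 CPM on D3, a log2 change of -4.48 ± 0.6. A region inside Drd2, which encodes a dopamine receptor, at chr9:49375242-49375496 had 0.165 and 0.565 CPM on D6, against 6.14 and 4.77 CPM on D3, a log2 change of -4.04 ± 0.61. Further decreases of 15.0- to 22.1-fold were found 61626 bp from Rapgef2, 395487 bp from Zfp608 and 2650 bp from Cyp4f16. None of these 6 regions overlapped a promoter window, and all were called in the 4 fits that left out a library.

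Zfp42, Nodal and Neurog2 stand for the pluripotent, the Nodal-responsive and the neural state. Zfp42 encodes Rex1, a zinc finger protein of naive pluripotent cells. It had 12 tested regions within 50 kb, of which 3 (2 to 3) were lower on D6 and none higher. The region at its start, chr8:43306878-43307311, whose promoter sequence is printed above, had 9.73 and 10.3 CPM on D6, against 29.2 and 39.2 CPM on D3. The D6 libraries lay well below the D3 libraries, with a log2 change of -1.77 ± 0.21 (adjusted p = 3.19e-09). A second region, 856 bp from the start, had 5.77 and 4.24 CPM on D6, against 14.5 and 14.2 CPM on D3 (log2 change -1.49 ± 0.27). On D2, the start region had 31.7 and 32.9 CPM, close to its D3 level. The other regions of the gene were weaker, and a region inside it at chr8:43300170-43300514 had 3.88 and 3.67 CPM on D6 and 6.66 and 6.12 CPM on D3 without passing the test (adjusted p = 0.164).

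Nodal encodes a TGF-beta family ligand of the epiblast. Of its 7 tested regions, 5 (2 to 4) were lower on D6 and none was higher. The one with the smallest p, 1407 bp from the gene at chr10:61415699-61416565, had 9.73 and 11 CPM on D6, against 25.7 and 19.2 CPM on D3, a log2 change of -1.14 ± 0.22 (adjusted p = 9.27e-05). It was the one Nodal region that kept its call in all 4 fits that left out a library. The region 96 bp from the start had 2.72 and 3.67 CPM on D6, against 6.66 and 7.46 CPM on D3, a log2 change of -1.16 ± 0.32 whose call was lost without D6 replicate 1 (adjusted p = 0.163). It had 13.6 and 15.3 CPM on D2, so it stood lower on each later day. One region inside the gene at chr10:61424627-61424832 had 2.64 and 2.4 CPM on D6, against 0.701 and 1.19 CPM on D3, and did not pass the test (adjusted p = 0.0914).

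Neurog2 encodes a basic helix-loop-helix factor that starts neuronal differentiation. Of its 14 tested regions, 5 (3 to 5) were higher on D6 and none was lower. The one with the smallest p, 3585 bp from the gene at chr3:127628445-127629148, had 41.4 and 34.6 CPM on D6, against 14.1 and 14.9 CPM on D3, a log2 change of 1.4 ± 0.2 (adjusted p = 2.13e-07). It had 5.4 and 6.48 CPM on D2 and 56.9 and 60.2 CPM on D7, so its level was higher on each later day. A region on the other side, 6633 bp from the gene at chr3:127642269-127642714, had 27.0 and 18.6 CPM on D6, against 9.73 and 8.36 CPM on D3 (log2 change 1.34 ± 0.22). The start region, whose promoter sequence is printed above, had 29.2 and 25.0 CPM on D6, against 17.8 and 18.8 CPM on D3. Its smaller log2 change of 0.58 ± 0.18 (adjusted p = 0.0242) passed the threshold in 1 of the 4 fits that left out a library. Within the gene span, a weaker region at chr3:127635217-127635432 had the largest fitted change of the called Neurog2 regions, with 1.81 and 2.4 CPM on D6, against 0.701 and 0.298 CPM on D3. Its log2 change of 1.91 ± 0.6 (adjusted p = 0.0218) rested on 39 D6 and 10 D3 reads and was called in 1 of the 4 fits that left out a library. Both regions outside the gene were called in all 4.

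**Figure D4:**
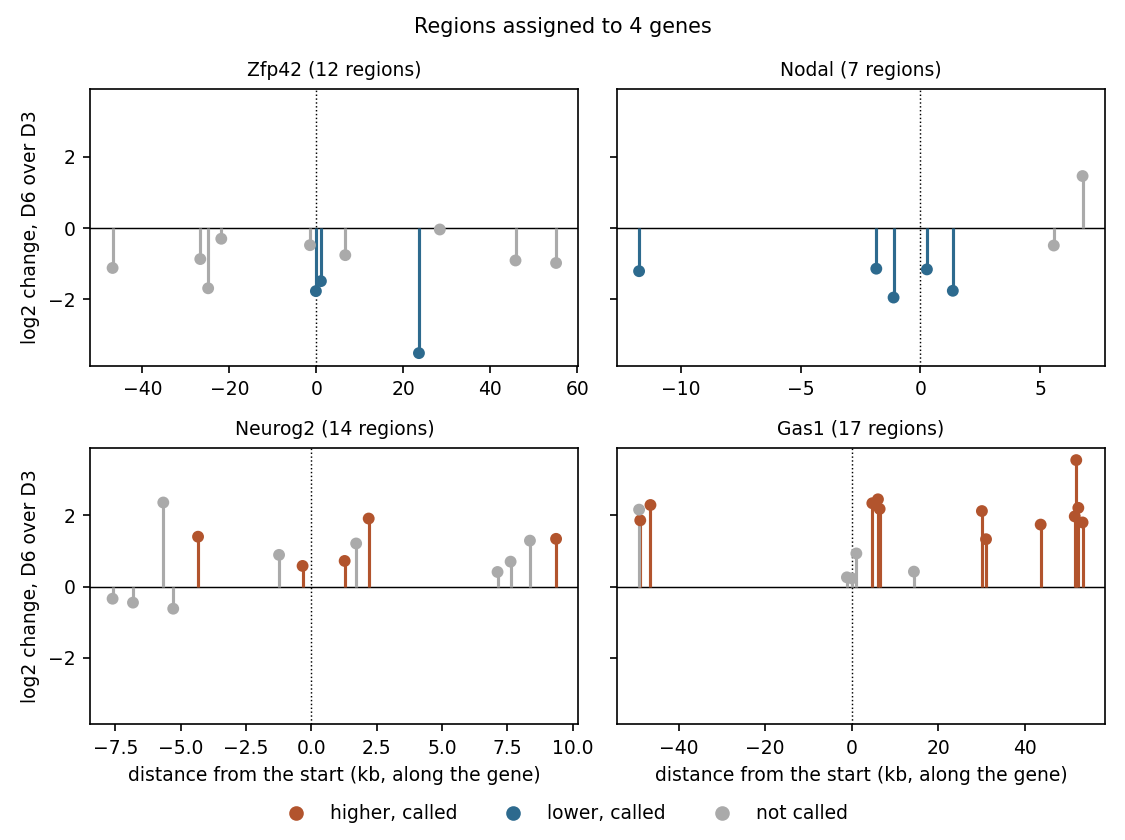
Log2 change (D6 over D3) of each tested region within 50 kb of Zfp42, Nodal, Neurog2 and Gas1 against its distance from the gene's start in kb. Point colour marks regions called higher, called lower or not called. Vertical lines join each point to the line of no change. Called regions are all lower at Zfp42 (3 of 12) and Nodal (5 of 7), and all higher at Neurog2 (5 of 14) and Gas1 (12 of 17).

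Regions were then counted over 23 lists with 366 genes of pathways and cell types, each region being given to the nearest gene within 50 kb. The lists held 5039 tested regions, of which 686 (375 to 538) were higher and 344 (169 to 210) lower on D6. A list's share is to be read against 9.17% higher and 6.06% lower over all tested regions.

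Pluripotency and Nodal genes had more lower than higher regions. Of 217 regions of naive pluripotency genes, 38 (20 to 24) or 17.5% were lower on D6 and 7 (0 to 4) higher, with a median log2 change of -0.33 against 0.02 over all tested regions. Summed over each gene's regions, 11 of its 18 genes were lower and none higher, against 10.8% lower and 9.42% higher among 19041 genes. A region 45564 bp from Tet2, which encodes an enzyme that oxidises methylcytosine, at chr3:133590700-133591100 had 2.97 and 2.4 CPM on D6, against 13.5 and 10.3 CPM on D3, a log2 change of -2.13 ± 0.33. A region 26257 bp from Klf5, a Krüppel-like factor of embryonic stem cells, at chr14:99339669-99340525 had 15.0 and 13.8 CPM on D6, against 43.4 and 30.6 CPM on D3 (log2 change -1.36 ± 0.21). That Klf5 region had 13.3 and 13.1 CPM on D2, so it was high on D3 alone among D2, D3, D6 and D7. A region 25086 bp from Tbx3 had 9.15 and 8.76 CPM on D6, against 19.0 and 20.3 CPM on D3 (log2 change -1.13 ± 0.22).

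Of 198 regions of Nodal pathway genes, 22 (11 to 14) were lower and 5 (3 to 4) higher. Lefty1 and Lefty2 encode secreted inhibitors of Nodal that are also its targets. A region 3854 bp from Lefty2 at chr1:180888455-180889254 had 16.7 and 16.9 CPM on D6, against 56.5 and 48.0 CPM on D3, a log2 change of -1.64 ± 0.17 (adjusted p = 1.58e-10). A region 9771 bp from Lefty1 had 7.01 and 4.66 CPM on D6, against 20.7 and 15.4 CPM on D3 (log2 change -1.6 ± 0.25). The opposite was seen inside Pcsk6, which encodes a protease that processes TGF-beta family ligands. Its region at chr7:66046771-66047229 had 5.77 and 5.08 CPM on D6, against 0.438 and 0.298 CPM on D3 (log2 change 3.78 ± 0.52).

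The primed epiblast list had 25 (17 to 20) or 12.9% of its 194 regions lower and 15 (8 to 11) or 7.73% higher. Its lower share was above the 6.06% over all tested regions, and its higher share was below the 9.17%. Lin28a encodes an RNA-binding protein that blocks let-7 maturation. The region inside it at chr4:134011521-134012295 had 5.85 and 5.93 CPM on D6, against 24.6 and 24.0 CPM on D3, a log2 change of -2.05 ± 0.23 (adjusted p = 4.7e-10). A region inside the DNA methyltransferase gene Dnmt3a had 9.57 and 9.6 CPM on D6, against 2.89 and 1.19 CPM on D3 (log2 change 2.12 ± 0.32). A region 5101 bp from Zic5, a zinc finger gene also used in neural tissue, at chr14:122452713-122454059 had 50.3 and 52.0 CPM on D6, against 19.6 and 13.7 CPM on D3 (log2 change 1.59 ± 0.16). Its level on D7 was 132.0 and 138.0 CPM.

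Caudal epiblast genes had the largest share of lower regions among the lists, 19.0% or 34 (14 to 24) of 179, with 19 (8 to 15) higher. Without D6 replicate 1, naive pluripotency genes led instead, with 11.1%. Wnt5b, which encodes a Wnt ligand of the primitive streak, has 3 promoter windows. The region with the smallest p was at a start inside the Wnt5b span, over 1 kb from either gene end. At chr6:119449155-119449979, which covers the promoter sequence printed above, it had 14.9 and 17.5 CPM on D6, against 57.0 and 56.8 CPM on D3, a log2 change of -1.82 ± 0.19 (adjusted p = 4.97e-11). It had 9.17 and 11.9 CPM on D2 and 10.4 and 12.5 CPM on D7, so it was open chiefly on D3. A region 13331 bp from Fgf8, an Fgf ligand of the caudal end, at chr19:45722869-45723160 was listed at 0 in both D2 libraries. It had 0.33 and 0.282 CPM on D6, against 5.09 and 5.97 CPM on D3 (log2 change -4.09 ± 0.69). Mnx1, a homeobox gene, had 5 (1 to 5) of its 9 regions lower and none higher. At Sp5, a Wnt target, 4 (0 to 4) of 8 regions were lower and 3 (0 to 2) higher on D6.

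Paraxial mesoderm genes had 22 (10 to 17) or 12.1% of 182 regions higher and 17 (8 to 11) or 9.34% lower. The shares over all tested regions were 9.17% and 6.06%. Summed over each gene's regions, 1 of the 20 genes was higher and 2 were lower. A region 35045 bp from Ripply2, a gene of somite boundary formation, at chr9:86980119-86980492 had 2.64 and 2.12 CPM on D6, against 17.4 and 16.7 CPM on D3, a log2 change of -2.81 ± 0.33. It had 0.648 and 1.35 CPM on D2. A region 7063 bp from Meox1, a somite homeobox gene, at chr11:101901417-101901694 had 4.62 and 3.25 CPM on D6, against 0.263 and 0.448 CPM on D3 (log2 change 3.53 ± 0.58). A region 20123 bp from Tbx18, a gene of the anterior part of somites, had 5.36 and 3.81 CPM on D6, against 0.701 and 0 CPM on D3 (log2 change 3.4 ± 0.53). Ripply2 had 4 (3 to 4) of 9 regions lower and none higher. Meox1 had 3 (2 to 2) of 12 higher and 3 (0 to 1) lower, and Tbx18 2 (1 to 1) of 16 higher and 3 (0 to 1) lower.

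Hox genes were counted by paralogue group. In groups 1 to 4, which act at hindbrain and neck levels, 29 (13 to 22) or 21.3% of 136 regions were higher and 10 (4 to 7) lower. In groups 5 to 9, of the trunk, 9 (1 to 6) of 76 were higher and 7 (2 to 4) lower. In groups 10 to 13, of the lumbar level and tail, 3 (0 to 2) of 63 were higher and 6 (1 to 6) lower. The difference between these groups was not tested. At Hoxd3, 8 (5 to 7) of 19 regions were higher and none lower, and one at chr2:74738687-74739019 had 11.6 and 11.3 CPM on D6, against 2.54 and 3.58 CPM on D3 (log2 change 1.94 ± 0.28). A region 28756 bp from Hoxc4 had 13.4 and 12.9 CPM on D6, against 1.67 and 3.28 CPM on D3 (log2 change 2.5 ± 0.3). The region inside Hoxc13 at chr15:102920594-102921422 had 32.7 and 32.2 CPM on D6, against 53.2 and 60.4 CPM on D3 (log2 change -0.81 ± 0.16).

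Genes of neural patterning, proneural and Notch genes and retinoic acid genes had more higher than lower regions. Of 347 regions of neural progenitor and patterning genes, 61 (33 to 48) were higher and 15 (5 to 11) lower. Zic4, a zinc finger gene of the dorsal neural tube, had 11 (8 to 10) of 26 regions higher, and the one with the smallest p at chr9:91386535-91388027 had 58.4 and 60.0 CPM on D6, against 20.6 and 16.4 CPM on D3 (log2 change 1.66 ± 0.17). A region inside Dbx2, a gene of interneuron progenitors, at chr15:95639323-95639983 had 24.9 and 19.3 CPM on D6, against 3.24 and 2.54 CPM on D3 (log2 change 2.91 ± 0.25, adjusted p = 1.76e-13). Dbx2 was divided, with 4 of its 18 regions higher and 4 lower. Regions inside the dorsal genes Pax3 and Pax7 were 11.4-fold and 4.17-fold higher. In the Pax3 region the levels were 6.68 and 6.36 CPM on D6, against 0.351 and 0.895 CPM on D3.

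Of 216 regions of proneural and Notch genes, 38 (17 to 28) were higher and 13 (6 to 8) lower. A region inside the receptor gene Notch2 at chr3:98120703-98121276 had 11.4 and 9.32 CPM on D6, against 1.84 and 1.79 CPM on D3 (log2 change 2.51 ± 0.33). A region inside Notch1 had 5.03 and 2.26 CPM on D6, against 0.351 and 0.298 CPM on D3 (log2 change 3.46 ± 0.61). A region 7336 bp from Hes5, a transcriptional target of Notch, had 18.2 and 17.2 CPM on D6, against 5.87 and 8.21 CPM on D3 (log2 change 1.37 ± 0.22). Its level on D7 was 35.8 and 33.8 CPM.

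Of 343 regions of retinoic acid genes, 62 (35 to 51) were higher and 21 (7 to 17) lower. Rarb, a retinoic acid receptor gene that is itself induced by retinoic acid, had 13 (9 to 11) of 56 regions higher and 3 (0 to 3) lower. One inside it at chr14:16901616-16902272 had 37.8 and 30.9 CPM on D6, against 6.14 and 6.12 CPM on D3, a log2 change of 2.49 ± 0.2 (adjusted p = 3e-14). Meis1 and Meis2 encode homeodomain partners of Hox proteins. Meis1 had 12 (5 to 10) of 45 regions higher and 1 (0 to 0) lower, and Meis2 had 14 (8 to 11) of 65 higher and 4 (2 to 3) lower. The Meis1 region at chr11:18963490-18964081 had 15.3 and 12.7 CPM on D6, against 2.98 and 0.298 CPM on D3.

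Hedgehog pathway genes had the largest share of higher regions among the lists, 27.5% or 71 (45 to 61) of 258, with 6 (4 to 5) lower, and led in each of the 4 fits that left out a library. Its median log2 change was 0.56. Gas1 and Boc encode co-receptors that bind Hedgehog ligand, and Gli2 and Gli3 encode the transcription factors at the end of the pathway. Gas1 had 12 (8 to 12) of 17 regions higher and none lower. The one with the smallest p, 26329 bp from the gene at chr13:60146807-60148076, had 44.4 and 47.6 CPM on D6, against 11.4 and 9.55 CPM on D3 (log2 change 2.12 ± 0.17, adjusted p = 5.33e-14). A region inside Gli2 at chr1:119033535-119034306 had 40.1 and 39.8 CPM on D6, against 7.8 and 7.76 CPM on D3 (log2 change 2.36 ± 0.19, adjusted p = 1.64e-14). Gli2 had 14 (11 to 13) of 45 regions higher and none lower, while Gli3 had 9 (6 to 8) of 42 higher and 4 (2 to 3) lower. A region inside Boc had 41.1 and 46.2 CPM on D6, against 11.3 and 10.7 CPM on D3 (log2 change 1.97 ± 0.17).

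**Figure D5:**
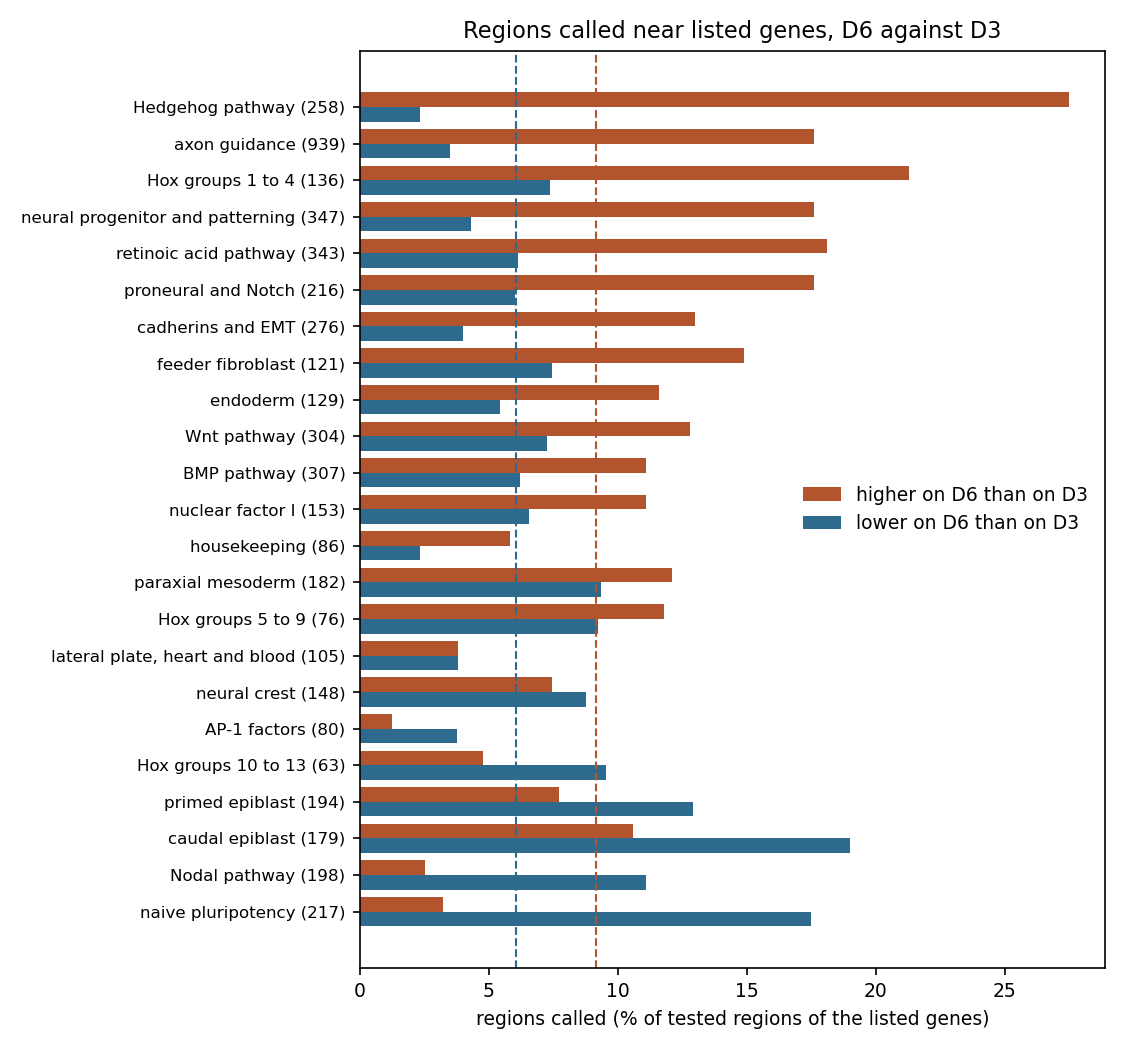
Percent of tested regions called higher and lower on D6 for each of the 23 gene lists, with dashed lines at 9.17% and 6.06%, the shares over all tested regions. Hedgehog pathway genes have the largest share of higher regions (27.5%), and caudal epiblast genes (19.0%) and naive pluripotency genes (17.5%) the largest shares of lower ones.

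Axon guidance genes, which are long and hold many regions, had 165 (103 to 139) of 939 regions higher and 33 (15 to 22) lower. Robo1 and Robo2 encode receptors of Slit ligands and had 18 (11 to 15) of 104 and 18 (8 to 13) of 90 regions higher. A Robo1 region at chr16:72787936-72788566 had 49.0 and 44.9 CPM on D6, against 11.4 and 10.7 CPM on D3 (log2 change 2.08 ± 0.17). The netrin receptor genes Dcc and Unc5c had 11 (7 to 11) of 53 and 8 (5 to 7) of 36 regions higher. Of 276 regions of cadherin and epithelial to mesenchymal transition genes, 36 (16 to 29) were higher and 11 (5 to 8) lower. Cdh2, which encodes N-cadherin, had 8 (2 to 5) of 34 higher and none lower, and a region inside Cdh11 had 50.5 and 42.2 CPM on D6, against 13.8 and 16.4 CPM on D3 (log2 change 1.63 ± 0.18).

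Wnt and BMP genes had shares of higher regions closer to the background. Of 304 Wnt pathway regions, 39 (23 to 26) were higher and 22 (11 to 15) lower, and of 307 BMP pathway regions, 34 (16 to 25) were higher and 19 (9 to 14) lower. Among the Wnt genes, Tcf7l1, which encodes a mainly repressive Tcf factor, had 7 (4 to 7) of 33 regions higher. The region inside it at chr6:72711228-72712176 had 52.0 and 43.9 CPM on D6, against 10.9 and 15.4 CPM on D3 (log2 change 1.9 ± 0.19). Axin2, a feedback inhibitor and Wnt target, had 4 (1 to 2) regions higher and 5 (3 to 5) lower of 29. A region 21510 bp from the receptor gene Fzd10 had 2.14 and 3.81 CPM on D6, against 9.73 and 10.1 CPM on D3 (log2 change -1.79 ± 0.35). Among the BMP genes, a region 2364 bp from Id2, a BMP target, had 48.5 and 56.2 CPM on D6, against 26.6 and 29.2 CPM on D3 (log2 change 0.91 ± 0.16).

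The nuclear factor I genes had 17 (12 to 16) of 153 regions higher and 10 (2 to 8) lower, and 12 (9 to 11) of the higher regions belonged to Nfia. A region inside Nfia at chr4:97839565-97840074 had 13 and 8.05 CPM on D6, against 1.23 and 1.04 CPM on D3 (log2 change 3.2 ± 0.36). Genes of AP-1 factors, which respond to stress and growth signals, had 1 (0 to 4) of 80 regions higher and 3 (2 to 3) lower.

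Lists of other cell types that the culture could hold were counted in the same way. Endoderm genes had 15 (6 to 10) of 129 regions higher and 7 (3 to 6) lower. A region 22789 bp from Ttr, which encodes transthyretin, had 31.8 and 24.0 CPM on D6, against 1.93 and 2.09 CPM on D3, a log2 change of 3.81 ± 0.26 (adjusted p = 1.99e-16). The start region of the endoderm factor gene Foxa2, which also marks floor plate, moved the other way, with 12.0 and 11.7 CPM on D6, against 25.5 and 28.8 CPM on D3 (log2 change -1.19 ± 0.22). Genes of lateral plate, heart and blood had 4 (2 to 4) of 105 regions higher and 4 (0 to 3) lower. Neural crest genes had 11 (5 to 10) of 148 higher and 13 (4 to 10) lower, with 5 (2 to 5) of 19 Tfap2b regions lower and 3 (2 to 5) of 13 Ednrb regions higher. Housekeeping genes had 5 (1 to 4) of 86 regions higher and 2 (0 to 1) lower.

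Markers of fibroblasts, the feeder cell type, had 18 (9 to 15) or 14.9% of 121 regions higher and 9 (2 to 5) lower on D6. A region inside Twist2 had 8.74 and 7.2 CPM on D6, against 0.965 and 0.298 CPM on D3 (log2 change 3.48 ± 0.42), and one 23274 bp from Col3a1 had 5.52 and 5.08 CPM on D6, against 0.701 and 0.298 CPM on D3 (log2 change 3.26 ± 0.48). A region 26315 bp from Fbln2 had 11.3 and 8.05 CPM on D6, against 4.38 and 4.92 CPM on D3 (log2 change 1.09 ± 0.31). Col1a2 went the other way, with 3 of its 19 regions lower and 1 higher. Its region 2226 bp from the gene had 0.907 and 0.565 CPM on D6, against 3.6 and 2.09 CPM on D3 (log2 change -1.91 ± 0.55), and was called in 1 of the 4 fits that left out a library. Summed over the list's 14 genes, the level was 415 and 378 CPM on D6, against 374 and 377 CPM on D3. The part of feeder cells, or of mesodermal cells that use these genes, in the changes above was not tested.

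Changed regions gathered at certain genes. At least 3 regions were higher on D6 at 1249 (582 to 901) genes and lower at 611 (162 to 278), of 18870 genes with a tested region within 50 kb. Such genes were long, with a median length of 168794 bp and 128589 bp, against 20876 bp over all of them, and long genes hold more regions. Auts2, a gene linked to brain development, had 31 (19 to 24) of 110 regions higher, and Nrxn3, which encodes a neurexin of the synapse, had 29 (11 to 21) of 109. Among genes with the most higher regions, Trabd2b, an inhibitor of Wnt ligands, had 20 (13 to 16) of 54 and Dnm3, a dynamin gene, 19 (13 to 16) of 57. The most lower regions were found at Etl4 with 11 (4 to 9) of 92 and at Macrod2 with 11 (5 to 6) of 133, and both also had higher regions, 8 (2 to 7) at Etl4 and 16 (10 to 13) at Macrod2. Summed over its regions, neither gene passed the test (adjusted p = 0.386 for Etl4 and 0.292 for Macrod2). Clybl had 10 (5 to 8) of 56 lower and 11 (6 to 9) higher, and Deptor 10 (2 to 9) of 32 lower. Deptor encodes an inhibitor of mTOR and had no higher region. Ltbp4, which encodes a TGF-beta binding protein of the matrix, had 9 (5 to 8) of 18 lower and none higher. By share among genes with at least 8 tested regions, Gas1 led the higher side with 70.6%, followed by Copz1 with 6 (3 to 5) of 10, and Eml2 (3 to 5), Hif3a (2 to 5), Mnx1 (1 to 5) and Pgr (2 to 4) had 5 of 9 lower. Regions of both directions occurred together at 2055 (913 to 1242) genes, and 214 (35 to 81) genes had at least 3 in each.

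Runs of called regions of 1 direction, with gaps of at most 12.5 kb between neighbours, held 33.5% of the higher and 24.4% of the lower regions. The longest run of higher regions lay between and in Zic1 and Zic4, at chr9:91352928-91406307, where 13 (7 to 11) of 30 tested regions were higher. Their summed level was 40.2 and 44.1 CPM on D2, 65.5 and 68.3 CPM on D3, 182 and 183 CPM on D6, and 282 and 314 CPM on D7. At Hoxd3 and Hoxd4, 9 (5 to 8) of 21 regions over 38.4 kb were higher, with sums of 95.7 and 91.5 CPM on D6, against 39.8 and 36.4 CPM on D3. Next to Gas1, all 9 (6 to 9) tested regions over 37.8 kb were higher, with sums of 132 and 128 CPM on D6, against 38.1 and 39.4 CPM on D3. They lay 26329 to 63552 bp from the gene and none was inside one. Inside Elavl4, which encodes a neuronal RNA-binding protein, 7 (2 to 4) of 9 regions over 8.09 kb were higher. Of the lower runs, the one inside Ltbp4 held 9 (5 to 8) of 12 regions, with sums of 45.4 and 41.2 CPM on D6, against 105 and 111 CPM on D3. The one next to Deptor held 8 (2 to 7) of 10, with sums of 35.2 and 42.5 CPM on D6, against 89.6 and 79.5 CPM on D3. Both lower runs were as high on D2 as on D3 or higher.

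Promoters were higher on D6 less often than other regions, and lower about as often, but at unlike levels. Regions at promoters had a median of 14.8 CPM on D6, against 1.77 CPM for other regions, and the share called varied with level. In the group with the highest level, 5.44% of regions near gene ends were lower, against 20.9% of those over 50 kb from genes. Of 14111 tested regions that overlapped a promoter window (250 bases before to 50 after a start), 4.05% (1.74 to 3.66%) were higher and 6.14% (2.69 to 5.05%) lower. Of the 159064 others, 9.63% (5.2 to 7.43%) were higher and 6.05% (2.96 to 3.91%) lower. Among the higher ones, the region at the start of Dct, a melanocyte and forebrain gene, at chr14:118052046-118052845 had 43.6 and 33.5 CPM on D6, against 5.44 and 5.07 CPM on D3 (log2 change 2.87 ± 0.21). Lrp8, which encodes a reelin receptor, has 3 promoter windows. The region at a start inside the Lrp8 span, over 1 kb from either gene end, had 11 and 8.05 CPM on D6. Its level on D3 was 0.789 and 2.39 CPM (log2 change 2.75 ± 0.36). The start of Hoxa3 had 7.92 and 5.37 CPM on D6, against 0.701 and 0.597 CPM on D3 (log2 change 3.33 ± 0.42). Among the lower ones were the start inside Wnt5b and the start of Zfp42. The start of Rec8, a meiotic cohesin gene, was also lower, with 13.1 and 14.7 CPM on D6, against 45.6 and 41.2 CPM on D3 (log2 change -1.65 ± 0.18).

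The 16523 promoter windows on tested regions were searched for the 7 motifs marked in the sequences above, on both strands. The octamer ATGCAAAT was in 3.22% of the 993 windows on lower regions, 1.81% of the 662 on higher regions and 1.54% of all windows. The RFX core GTTGCCAT was in 4.53% of windows on higher regions, 0.705% on lower regions and 1.45% of all. The Hox and Cdx core CATAAA was in 13.3% of windows on higher regions, 6.45% on lower and 6.21% of all. The Sox core CATTGTT was in 4.38%, 1.91% and 2.11% in the same order, the E-box CATCTG in 19.5%, 12.2% and 11.8%, the Lef and Tcf core ATCAAAG in 4.08%, 3.02% and 2.66%, and the GC box GGGCGG in 39.0%, 60.8% and 62.6%. The windows differ in base composition, with a median GC content of 55.3% on higher regions, 59.7% on lower regions and 61.0% over all. Among windows in the lowest GC tercile, the octamer was in 2.12% on higher regions, 6.38% on lower regions and 2.78% of all, and the RFX core in 5.29%, 1.02% and 2.22%. A match describes the letters of a window and is no measure of binding.

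The authors' deposited table of motif enrichment for the D3 and D6 pair covers peaks it calls down and up, and the labels do not state which day is on top. In its down set, the first motif of the authors' deposited table is the composite OCT4-SOX2-TCF-NANOG, ATTTGCATAACAATG, in which an octamer and the reverse of the Sox core stand side by side. It was in 16.82% of 6076 target peaks and 2.59% of the authors' background sequences. Next in the authors' deposited table are DMRT6 and DMRT1, followed by Tcf3 with 14.93% against 4.79% and Sp5 with 44.93% against 27.36%. In the up set of the authors' deposited table, the first motif is Hoxc9 with 30.07% of 10615 target peaks against 8.8% of background, and its consensus ggcCATAAAtca holds the Hox and Cdx core, in capitals. PBX2 is second in the authors' deposited table with 34.62% against 15.0%, and Rfx2 and RFX come next with 10.85% against 1.64% and 10.35% against 1.49%. The RFX consensus is cgGTTGCCATGGCAAC, where capitals mark the core and its reverse, which overlap. Some motifs were specific to a set in the authors' deposited table and some were not. Hoxc9 was in 6.53% of the down peaks against 6.94% of background, and the OCT4-SOX2-TCF-NANOG composite in 3.04% of the up peaks against 2.99%. Sox2 and Tcf3, in contrast, were above background in both sets of the authors' deposited table. Sox2 was in 38.07% of up peaks against 17.94% of background, and in 29.05% of down peaks against 15.94%. In the authors' deposited table, Tcf3 was in 11.07% of up peaks against 5.55%, and in 14.93% of down peaks against 4.79%.

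MicroRNA genes were examined as short loci whose product sequence is known. Of 963 hairpin genes in the RefSeq table, 416 had a tested region within 2 kb, and of the 610 regions near them 42 (27 to 34) or 6.89% were higher and 34 (16 to 22) or 5.57% lower on D6, both below the shares over all regions. The mature sequences below belong to the hairpins next to called regions and were chosen after the values were seen. Those of the miR-290 and miR-302 clusters are shown because they share most of a seed. Capitals mark the seed, bases 2 to 8. The first 4 belong to the clusters of embryonic stem cells, and the other 5 to hairpins near higher regions.
miR-290a-3p: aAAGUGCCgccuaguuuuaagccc
miR-291b-3p: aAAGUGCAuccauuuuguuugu
miR-302b-3p: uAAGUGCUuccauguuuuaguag
miR-302d-3p: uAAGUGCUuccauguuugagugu
miR-9-5p: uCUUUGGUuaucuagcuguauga
miR-199a-5p: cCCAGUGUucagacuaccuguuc
miR-219a-5p: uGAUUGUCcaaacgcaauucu
miR-27b-3p: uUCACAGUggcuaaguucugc
miR-24-3p: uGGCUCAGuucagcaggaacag
The seeds of miR-302b-3p and miR-302d-3p are the same, and those of miR-290a-3p and miR-291b-3p differ from them in the last base alone. In the miR-290 cluster, miR-291a-3p, miR-294-3p and miR-295-3p, which are not shown, have the same seed as miR-302b-3p. Other hairpins near lower regions, among them Mir135b, Mir205 and Mir10a, have other seeds.

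The region near Mir290a at chr7:3217603-3217900 had 3.38 and 5.93 CPM on D6, against 10.7 and 15.2 CPM on D3, a log2 change of -1.51 ± 0.29 (adjusted p = 8.85e-05). The region 18 bp from Mir302b, in the cluster that also holds Mir302a, Mir302d and Mir367, at chr3:127544609-127545210 had 13.5 and 11.7 CPM on D6, against 22.1 and 18.5 CPM on D3. Its log2 change of -0.68 ± 0.2 was called in 1 of the 4 fits that left out a library. It had 44.6 and 34.6 CPM on D2, so it stood lower on each later day. On the higher side, the region near Mir9-2, a microRNA gene of neural progenitors, at chr13:83739405-83740018 had 11.5 and 12.3 CPM on D6, against 4.12 and 2.39 CPM on D3 (log2 change 1.8 ± 0.27). The region near Mir219a-1 had 27.4 and 28.8 CPM on D6, against 10.7 and 13.7 CPM on D3 (log2 change 1.22 ± 0.2). The region near Mir199a-2, inside Dnm3, had 8.58 and 11.3 CPM on D6, against 1.32 and 1.49 CPM on D3 (log2 change 2.81 ± 0.34). The region next to Mir23b and Mir24-1, whose cluster also encodes miR-27b, had 33.6 and 32.2 CPM on D6, against 14.0 and 14.0 CPM on D3 (log2 change 1.23 ± 0.19). It had 0.54 and 0.675 CPM on D2. The region near Mir135b had 11.6 and 9.18 CPM on D6, against 34.7 and 35.5 CPM on D3 (log2 change -1.74 ± 0.21). Openness next to a hairpin does not measure the microRNA itself.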

How the data were processed

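ATAC-seq libraries on the 4 days of the differentiation were deposited as read counts per region, made by the authors from the 10 libraries. The submitters' processing notes name HISAT2 2.1.0, SAMtools, MACS2 2.1.1.20160309, bedtools, HOMER 4.10 and the build mm10, with no roles or settings; the counting step is not given in the sources used here. The deposited counts are whole numbers without normalization. The deposited peak lists give, per the file headers and layout, a fold enrichment ratio and a −log10 q per peak. The authors' deposited motif tables give the percent of target and background sequences with a motif and a log p score.

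The 10 peak lists were merged where peaks overlapped, which gives 1 region per count row. Every peak's region had reads in its own library, which tested the match. Counts were scaled by TMM factors, filtered with filterByExpr, and tested in one edgeR 4.0.16 quasi-likelihood fit (R 4.3.3, limma 3.58.1) of all 10 libraries, which share the estimate of spread, with Benjamini-Hochberg adjustment and a threshold of 0.05. Log2 changes are D6 over D3 with their standard errors. The steps were tested on simulated data. A gene's sum covers the regions nearest to it within 50 kb of its span in the RefSeq table. Alternatives were DESeq2 1.42.0, other scalings and filters, the replicate number as a block, and fits without single libraries. Region by region, the differences between replicates 1 and 2 were barely correlated across days (-0.001 to 0.046), and the main fit did not pair libraries by number. Replicate 1 was nevertheless the deeper library on D3 and on D6. It also had the smaller share of counts in mitochondrial regions, 10.1% against 13.3% on D3 and 9.7% against 12.3% on D6. Whether the replicate numbers mark a batch was not tested. Named single regions are the 6 with the largest increase and decrease among called regions above the median level whose D6 and D3 libraries do not overlap; loci are those with the most called regions in each direction among genes with at least 8 tested, and those with the most in the less frequent direction; for each list, up to 4 genes with the most called regions were taken, each by its region with the smallest p. One result that this rule names is not reported here. Counting intervals are exact (95%) and cover counting error only. The markers, lists and comparisons were chosen with earlier results of these data known; promoter motifs, runs of regions and microRNA loci were chosen after their values were seen. Python 3.11.15, pandas 2.3.3, numpy 2.4.6, scipy 1.17.1 and matplotlib 3.10.9 were used.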

Additional observations from a re-analysis of the deposited data

How the results depend on the processing

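With 2 libraries a day, the counts moved with each library left out, and no fit varied depth alone. With DESeq2, regions lower on D6 were 6082, near gene ends 2.07% were higher and 2.99% lower, 4.08% of those over 50 kb from genes were lower, 803 genes had at least 3 regions higher and 239 at least 3 lower, and 218 regions of listed genes were lower. The median D7 minus D2 log2 difference then was 2.27 for higher and -1.2 for lower regions. Requiring a change of at least 2-fold left 1.9% higher and 2.77% lower near gene ends. With a −log10 q of at least 5, 4727 regions held a peak on D6 alone and 5790 on D3 alone.

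In the 4 fits that each left out 1 library, regions higher were 8518 to 12150 and lower 5087 to 6665; gene sums higher 869 to 1483 and lower 960 to 1557; genes with at least 3 regions higher 582 to 901 and lower 162 to 278; regions of listed genes higher 375 to 538 and lower 169 to 210. Near gene ends 1.52 to 2.68% were higher and 2.08 to 3.87% lower, and over 50 kb from genes 7.22 to 10.4% were higher and 3.36 to 4.95% lower. The D7 minus D2 differences were 2.16 to 2.33 and -1.18 to -1.12. Those fits have fewer samples by construction; for DESeq2 the cause was not tested.

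With the replicate number as a block, 16421 regions were higher and 11049 lower, and 2295 gene sums higher and 2569 lower. Of the 115 called regions among the 135 named by rule, no call changed direction under any alternative. DESeq2 lost 6 calls, the block 1, and the fits without a library 10 to 23. A larger minimum overlap between a peak and a region could change nothing, since every peak lies wholly in its merged region.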

Other observations

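The run with the most lower regions lay on the Y chromosome, at chrY:90799245-90813009, where 13 (7 to 12) of 14 tested regions were lower on D6. Their summed level was 662 and 816 CPM on D2, 758 and 772 CPM on D3, 438 and 433 CPM on D6, and 349 and 348 CPM on D7. Of all 55 tested Y regions, 13 or 23.6% were lower and none higher. On the unplaced sequence Un_JH584304, 7 (6 to 7) of 23 regions of a run were lower, with sums of 1180 and 1350 CPM on D6, against 1820 and 2150 CPM on D3. Such sequences can hold repeats whose reads have more than 1 possible place, and how the authors treated those reads is not given in the sources used here.

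The share of called regions went with region width, but not in one direction. Of the 24899 narrowest regions, with a median width of 129 bp, 1.63% were higher and 0.687% lower on D6. Of 35082 regions with a median width of 367 bp, 18.4% were higher and 11.7% lower. Of the 1632 widest, with a median width of 1123 bp, 8.7% were higher and 5.7% lower. The median level went with width as well, at 0.877, 4.12 and 42.1 CPM on D6 in these 3 classes. Among the autosomes, the share of higher regions was largest on chromosome 18 with 10.9%, and smallest on chromosome 11 with 6.56%. The share of lower regions was largest on chromosome 7 with 7.5% and smallest on chromosome 6 with 5.29%.

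At some loci the D3 level stood above those of both D2 and D6. The Klf5, Wnt5b, Fgf8 and Ripply2 regions described in the text are such cases, and so are a pair of start regions, chosen after their values were seen. The start region of H2-M2, a gene of the major histocompatibility complex, had 1.57 and 0.706 CPM on D6, against 11 and 10.4 CPM on D3 (log2 change -3.13 ± 0.41), and 3.02 and 2.97 CPM on D2. The start region of Sox14, a Sox gene of interneurons, had 5.85 and 5.79 CPM on D6, against 20.5 and 23.1 CPM on D3 (log2 change -1.9 ± 0.24), and 14.8 and 17.4 CPM on D2.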
